A study of Homo sapiens with 12 samples.

Results

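The genes described here encode the aldehyde dehydrogenases (ALDH), aldo-keto reductases (AKR), glutathione S-transferases (GST), UDP-glucuronosyltransferases (UGT) and quinone reductases (NQO). They were picked out by symbol, and the families were chosen with earlier results of these data known. Of the 57500 gene IDs in the count table, 72 carry such a symbol: 18 ALDH, 12 AKR, 20 GST, 20 UGT and 2 NQO genes. They were measured by RNA sequencing of total RNA after removal of ribosomal RNA, in 12 libraries from 3 established human cancer cell lines. PEO4, an ovarian cancer line, grew in RPMI 1640 either without additive (control) or with recombinant human TGF-β, a cytokine, at 10 ng/mL for 6 days. The colorectal cancer lines SW480 and SW620, which the title of the series sets against each other as primary and metastatic, received no treatment and grew in DMEM. All media held fetal bovine serum and antibiotics. Each of the 4 groups has 3 libraries labelled as biological replicates, and whether these came from separate cultures started apart is not stated, so p-values measure the spread between these samples. A line is 1 genotype, so a difference between SW480 and SW620 describes this pair of lines.

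These enzymes handle reactive and foreign compounds in sequence. The ALDH enzymes oxidise aldehydes to acids, AKR enzymes reduce aldehydes and ketones to alcohols, and NQO enzymes reduce quinones. The GST enzymes then attach glutathione to reactive molecules and the UGT enzymes attach a sugar, mostly glucuronic acid, which makes a compound easier to export. Many of them are regulated by the stress-responsive factor NRF2 and the xenobiotic receptor AHR, and UGT1A genes are known for their activity in liver and gut. Several also act on the cell's own molecules, among them retinaldehyde (ALDH1A enzymes), steroids and prostaglandins (AKR1C enzymes) and bilirubin (UGT1A1).

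Parts of these families are near-copies of each other, and this limits which gene a read can be given to. The 9 UGT1A genes each have a first exon of their own and share the exons that follow, so the sequence across the first splice junction is shown for each in genomic order (GENCODE 29, GRCh38). The first 30 bases, in lower case, end that gene's first exon, and the 30 capitals begin the shared second exon at chr2:233767034-233767165.
UGT1A8: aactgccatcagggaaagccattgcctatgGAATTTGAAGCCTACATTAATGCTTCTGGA
UGT1A10: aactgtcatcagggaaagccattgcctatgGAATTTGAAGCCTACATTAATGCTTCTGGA
UGT1A9: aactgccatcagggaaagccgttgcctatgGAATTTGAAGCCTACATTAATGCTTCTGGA
UGT1A7: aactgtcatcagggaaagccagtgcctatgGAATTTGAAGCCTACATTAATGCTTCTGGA
UGT1A6: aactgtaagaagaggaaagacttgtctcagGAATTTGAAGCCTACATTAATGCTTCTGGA
UGT1A5: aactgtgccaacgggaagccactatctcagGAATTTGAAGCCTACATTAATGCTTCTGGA
UGT1A4: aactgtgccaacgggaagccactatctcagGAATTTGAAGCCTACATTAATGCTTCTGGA
UGT1A3: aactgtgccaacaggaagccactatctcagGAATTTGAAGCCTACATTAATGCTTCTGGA
UGT1A1: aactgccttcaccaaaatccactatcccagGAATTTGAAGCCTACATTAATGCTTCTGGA
The 735 coding bases after the first exon were identical in all 9 transcripts, and the last 30 bases of the first exon were the same in UGT1A4 and UGT1A5. A read from the shared exons belongs to 9 genes at the same time, so only the unshared exon bases can tell the genes apart, and these ranged from 472 bases in UGT1A3 to 2475 bases in UGT1A7. The first exon of UGT1A3 holds 867 coding bases, so part of it is annotated to other genes too. Of the 50-base windows, 72.5% of UGT1A4 and 71.6% of UGT1A5 also occurred in another gene, above the 63.9% and 63.0% of their exon bases that are shared. The split of reads among these UGT1A genes is therefore uncertain. The AKR1C genes are separate genes with similar coding sequences, shown here for 3 of them from coding base 301 to 420 with capitals where a base differs from AKR1C1.
AKR1C1: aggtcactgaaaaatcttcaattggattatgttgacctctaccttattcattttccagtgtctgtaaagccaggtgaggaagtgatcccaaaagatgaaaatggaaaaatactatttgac
AKR1C2: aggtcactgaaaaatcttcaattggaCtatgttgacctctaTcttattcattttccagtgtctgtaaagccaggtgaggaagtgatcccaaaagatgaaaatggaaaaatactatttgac
AKR1C4: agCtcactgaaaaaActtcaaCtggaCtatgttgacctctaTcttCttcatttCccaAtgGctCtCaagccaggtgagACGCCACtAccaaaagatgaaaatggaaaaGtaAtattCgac
AKR1C1 and AKR1C2 were 98% identical, with 19 differences over 969 coding bases, while AKR1C3 shared 91.8% and AKR1C4 88.5% with AKR1C1. Of the 50-base windows in their exons, 28.6% of AKR1C1 and 38.9% of AKR1C2 also occurred in another gene, against 4.53% of AKR1C3. The split of reads between AKR1C1 and AKR1C2 is therefore uncertain.

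Libraries held 14531420 to 22028956 counts. Where none was seen, up to 3 could have been missed by counting error alone, equal to 0.136 to 0.206 CPM (the count relative to the total of the library, here the unscaled total). CPM values below use totals scaled by TMM (trimmed mean of M values) over all 12 libraries. The line labels were checked with markers. The intestinal factor CDX2 was at 18.7 ± 2.46 CPM in SW480 and at 18.1 ± 4.53 CPM in SW620 (SD, n = 3) while no PEO4 library had more than 3 counts. Other colorectal markers differed between the lines: VIL1 was at 25.9 ± 9.39 CPM in SW480 against 205 ± 51.0 in SW620, LGR5 at 1.14 ± 0.387 against 92.2 ± 16.9 and CDH17 at 0.541 ± 0.334 against 3.26 ± 1.29, all 3 past the threshold in edgeR. The 6 markers of that list summed to 36.0 to 57.3 CPM in SW480 and 260 to 399 CPM in SW620, and their part in the differences between the lines was not tested. KRT20 and GPA33, also colon markers, were nearly absent from the SW lines, with at most 26 counts in a library. PAX8, a factor of the female reproductive tract, reached 556 ± 20.9 CPM in PEO4 control against 43.9 ± 12.8 CPM in SW480. The 6 ovarian markers summed to 5277 to 8504 CPM in PEO4 control, 2953 to 4746 CPM with TGF-β, 109 to 126 CPM in SW480 and 127.9 to 196.5 CPM in SW620. Most of the sum in PEO4 control was MUC16, at 5666 ± 1695 CPM. SOX17 was lower in PEO4 control (1.60 ± 0.227 CPM) than in SW480 (2.56 ± 0.30), and FOLR1 lower (12.6 ± 2.22) than in SW620 (16.4 ± 11.2). In a principal component analysis the second component of the SW libraries (18.1% of variance) set both libraries numbered 2 at one end and SW620 replicate 3 at the other. Control replicate 1 lay between the PEO4 groups on their first component (42.9%). SW620 replicate 3 also held 202 counts of 21 genes that are high in PEO4 and at 3 counts or fewer in the other SW libraries, which is 1.23% of their PEO4 level. At that share it would hold 9.8 of its 16 UGT2B7 counts, 15.3 of its 18 AKR1D1 counts and 32.3 of its 687 AKR1B1 counts. For ALDH3B1 the share gives 47 of 433 counts, and for ALDH3B2 11.8 counts, more than the 7 it held. UGT2B7 and ALDH3B2 themselves meet the rule that picked the 21 genes. The 10 markers of immune, endothelial, stromal and liver cells summed to 1.71 to 2.39 CPM in SW480 and 8.05 to 19.9 CPM in SW620. None of the 10 was at 0 in every library of a line, LUM reached 7.03 CPM and PTPRC 2.63 CPM in SW620, and their part in the differences between the lines was not tested.

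GSTP1, the pi-class transferase, was the highest of these genes per kilobase of exon in every group. Its level was 251 ± 25.5 CPM per kb in untreated PEO4 and 312 ± 35.8 with TGF-β, and it was 131 ± 29.6 in SW480 and 178 ± 89.8 in SW620 (SD, n = 3). The genes next in order differed between the ovarian and the colorectal lines. In PEO4 control they were the aldose reductase gene AKR1B1 (36.8 ± 2.89 CPM per kb), ALDH3B1, whose enzyme oxidises lipid-derived aldehydes (33.6 ± 1.00), ALDH18A1, which makes the precursor of proline (20.5 ± 1.44), and ALDH3B2 (19.6 ± 8.08). In SW480 the quinone reductase NQO1 (37.0 ± 9.70 CPM per kb) was followed by the mitochondrial transferase GSTK1 (21.5 ± 2.38), ALDH18A1 (18.6 ± 5.59) and the retinaldehyde dehydrogenase ALDH1A3 (18.3 ± 2.29). In SW620 NQO1 (47.3 ± 20.3), ALDH18A1 (34.2 ± 13.2), GSTK1 (30.8 ± 8.49) and the aflatoxin aldehyde reductase AKR7A2 (15.7 ± 4.71) came next. Neighbours in these orders whose ranges of mean ± SD overlap are AKR1B1 and ALDH3B1, and ALDH18A1 and ALDH3B2, in PEO4 control, GSTK1, ALDH18A1 and ALDH1A3 in SW480, and NQO1, ALDH18A1 and GSTK1 in SW620. With TGF-β the order in PEO4 was AKR1B1 (35.9 ± 2.56 CPM per kb), AKR1D1 (30.7 ± 7.35), ALDH3B1 (24.7 ± 2.88) and GSTO1 (22.1 ± 2.34), each overlapping the next.

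Of the 72 genes, 47 reached a mean of 1 CPM in at least 1 group and 29 did so in all 4, and 5 (GSTA1, UGT2A1, UGT2A2, UGT2A3 and UGT2B11) had 0 counts everywhere. The filter on low counts left 35 genes tested in both comparisons, 9 in the SW lines only and 5 in PEO4 only, while 23 were tested in neither and reached no more than 16 counts in a library. The genes tested in neither are GSTA1, GSTA2, GSTA3, GSTA5, GSTM1, GSTM5, GSTT2, GSTT4, AKR1B15, ALDH8A1, UGT1A7 to UGT1A10 and 9 genes of the UGT2 family. GSTM1, whose enzyme conjugates many drugs, had at most 3 counts in any library, and the androgen-conjugating UGT2B17 at most 1 count. ALDH1A1, a retinaldehyde dehydrogenase often used as a marker of stem-like tumour cells, stayed between 0.634 ± 0.228 and 0.881 ± 0.406 CPM in the 4 group means.

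**Figure D1:**
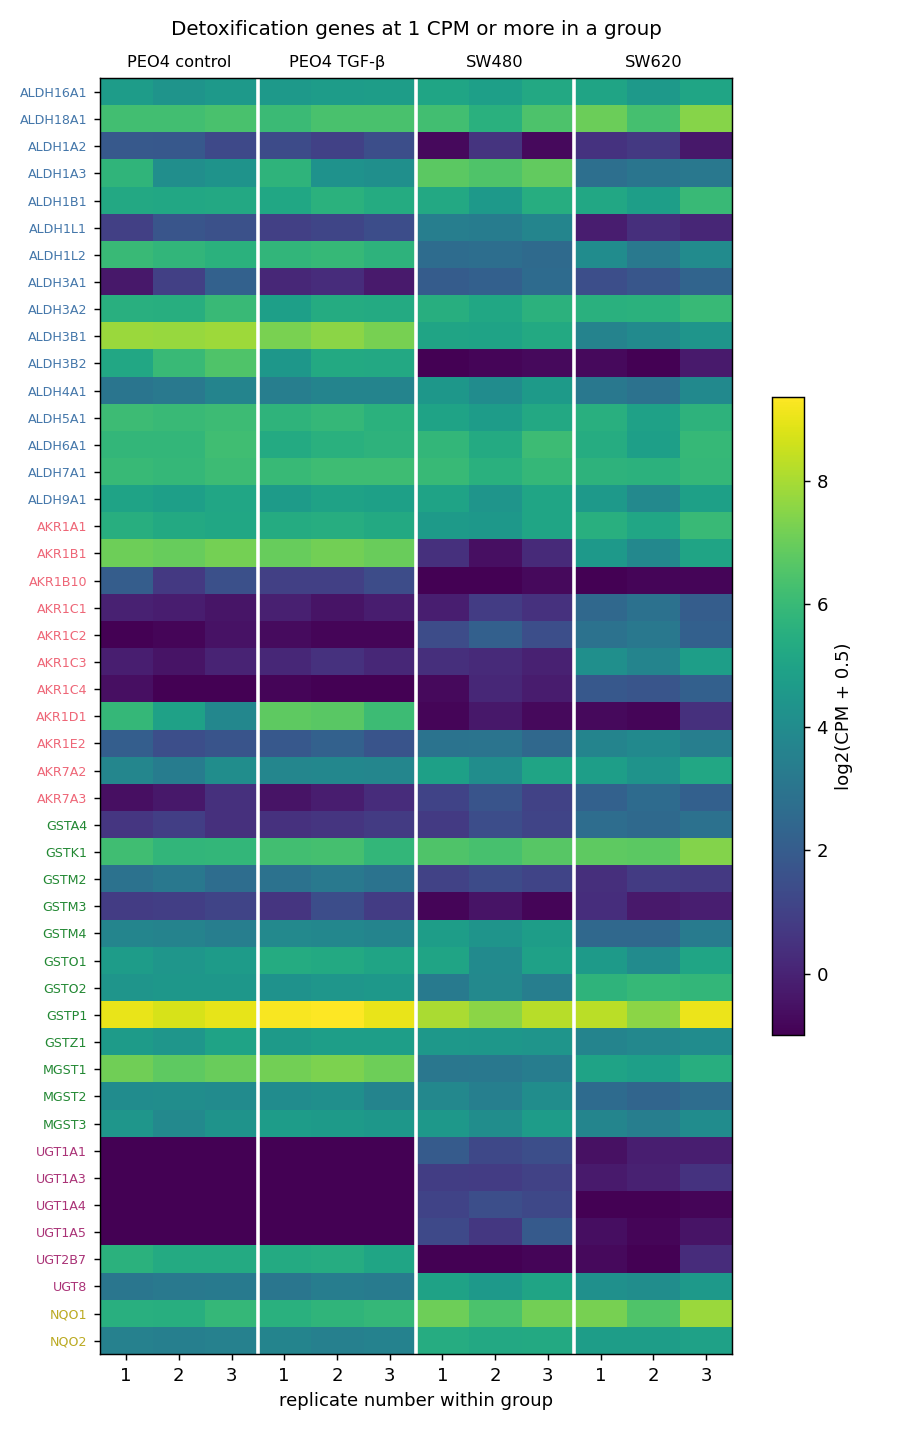
Level of each gene with a mean of at least 1 CPM in 1 or more groups, as log2(CPM + 0.5) in colour, with the 12 libraries in columns and genes in rows grouped by family. GSTP1 is the brightest row, the UGT1A rows are dark in all 6 PEO4 libraries, and UGT2B7, AKR1D1 and ALDH3B2 are bright in PEO4 alone.

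PEO4 held transcripts that the colorectal lines almost lacked. UGT2B7, a glucuronosyltransferase for steroids and opioids, was at 48.2, 40.2 and 39.3 CPM in control replicates 1 to 3 and at 39.7, 41.6 and 33.8 CPM with TGF-β. SW480 held at most 1 count of it in a library. AKR1D1, the steroid 5β-reductase of bile acid synthesis, was at 34.0 ± 22.8 CPM in PEO4 control against 0.146 ± 0.122 CPM in SW480, and ALDH3B2 at 63.3 ± 26.1 against 0.0535 ± 0.0519 CPM (SD, n = 3). AKR1B10, a retinal reductase, was at 2.41 ± 1.28 CPM in PEO4 control and 0.0345 ± 0.0598 CPM in SW480. In the opposite sense, all 9 UGT1A genes together had 1 count in the 6 PEO4 libraries. PEO4 and the SW lines grew in different media, so line and medium cannot be told apart, and these levels were not tested.

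Setting SW620 against SW480 addresses how a line from a metastasis differs from one from a primary tumour. AKR genes were higher in SW620, led by AKR1B1 and AKR1C3, and most UGT1A genes of the 3′ part of their locus were lower, as were ALDH1A3 and ALDH1L1. The quasi-likelihood test of edgeR put 26 of the 44 tested members past the adjusted threshold of 0.05, with 12 higher and 14 lower in SW620. The background is large, since 30.5% of all 20941 tested genes passed, 13.5% higher and 17% lower. The share here was 59.1%, and the median size of the log2 fold change was 0.99 against 0.53 over all tested genes. By family, 8 of 9 tested AKR genes were higher and none lower, 5 of 6 tested UGT genes were lower and none higher, 4 of 11 GST genes were lower and 3 higher, and 4 of 16 ALDH genes were lower and 1 higher. Of the lower UGT genes 4 belong to the UGT1A locus. The count filter shaped these splits. UGT1A4 and UGT1A6 entered through SW480 and AKR1C4 through SW620, while UGT1A7 to UGT1A10 were left out. The splits therefore describe the tested genes and not whole families. Libraries of the lines did not overlap in 27 of the 44, against 42.7% of all tested genes, and 29 had an unadjusted p under 0.05, against 40.7% of all tested genes.

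**Figure D2:**
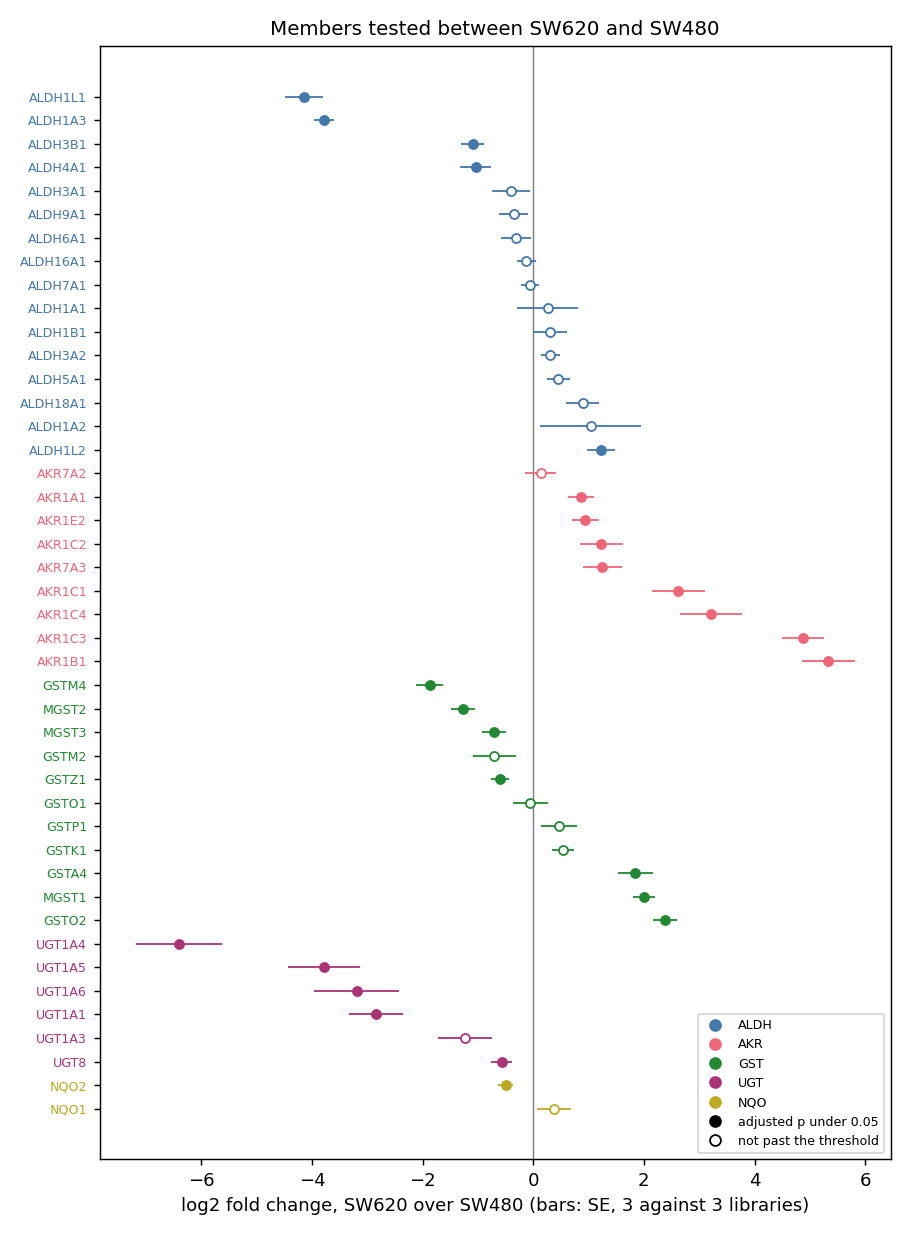
Log2 fold change of SW620 over SW480 for the 44 tested genes, grouped by family, with bars for the standard error of the fit and filled points for an adjusted p under 0.05. The AKR points lie at or to the right of 0, from 0.13 (AKR7A2) to 5.34 (AKR1B1), and the UGT points lie to the left, down to UGT1A4.

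AKR1B1, the gene of aldose reductase, which turns glucose into sorbitol (ENSG00000085662, chr7:134442350-134459284, minus strand, GENCODE 29 on GRCh38), was at 0.858, 0.17 and 0.674 CPM in SW480 replicates 1 to 3. The SW620 libraries had 23.2, 13.9 and 32.5 CPM. Every SW620 library was far above every SW480 library, a log2 fold change of 5.34 ± 0.47 (SE), or 40.4-fold, with an edgeR adjusted p of 5.09e-05. Both PEO4 groups were higher still, at 135 ± 10.6 CPM in control and 131 ± 9.36 CPM with TGF-β (SD, n = 3).

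AKR1C3, whose enzyme reduces steroid ketones and prostaglandin precursors (ENSG00000196139, chr10:5035354-5107686, plus strand), was at 0.808, 0.682 and 0.466 CPM in SW480 and at 17.4, 12.1 and 27.7 CPM in SW620. The groups did not overlap, and the log2 fold change was 4.87 ± 0.38 (edgeR adjusted p 2.39e-05). AKR1C1, a progesterone-inactivating reductase, was at 0.404, 1.31 and 0.881 CPM in SW480 and 5.21, 6.71 and 3.68 CPM in SW620, a log2 fold change of 2.62 ± 0.48 (edgeR adjusted p 0.00288). AKR1C4, the liver-type 3α-hydroxysteroid dehydrogenase, was at 0.101, 0.625 and 0.363 CPM in SW480 and 3.13, 2.84 and 4.06 CPM in SW620, a log2 fold change of 3.22 ± 0.56 (edgeR adjusted p 0.00234). For these the lines stood apart in every library, whereas AKR1C2, the near-copy of AKR1C1, overlapped: 2.17, 3.98 and 2.33 CPM in SW480 and 7.09, 8.31 and 3.97 CPM in SW620 (log2 fold change 1.23 ± 0.39, edgeR adjusted p 0.0411). With AKR1E2, these 4 genes lie within 432 kb of chromosome 10, and all 5 were higher in SW620. Of 11 other tested genes in the cluster or within 500 kb of it, 3 were higher and none lower. Of all tested genes 30.5% passed, 13.5% higher and 17% lower. The 3 were LINC00704 (1 count in all SW480 libraries and 210 in SW620), LINC00705 (1 and 45 counts) and ASB13 (log2 fold change 0.62 ± 0.21, edgeR adjusted p 0.0492), named after their values were seen.

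The other AKR genes that passed had smaller differences. AKR1A1, the general aldehyde reductase, was at 27.1 ± 6.06 CPM in SW480 and at 48.4 ± 15.1 CPM in SW620, AKR1E2, which acts on a sugar derivative, at 6.58 ± 1.22 and 12.4 ± 2.08 CPM, and AKR7A3, an aflatoxin aldehyde reductase, at 1.97 ± 0.661 and 4.58 ± 0.868 CPM (SD, n = 3). Their log2 fold changes were 0.86 ± 0.24, 0.94 ± 0.24 and 1.25 ± 0.36, with edgeR adjusted p of 0.0225, 0.0174 and 0.0264. For AKR7A3, 23.3% of the exonic 50-base windows also occur in related genes, so its counts are uncertain. Its relative AKR7A2 had 25.9 ± 8.5 and 27.9 ± 8.38 CPM and did not pass (log2 fold change 0.13 ± 0.28, edgeR adjusted p 0.761). Summed over the family, AKR genes held 5.28% ± 0.238 of the CPM of all 72 genes in SW480 and 10.6% ± 0.893 in SW620.

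**Figure D3:**
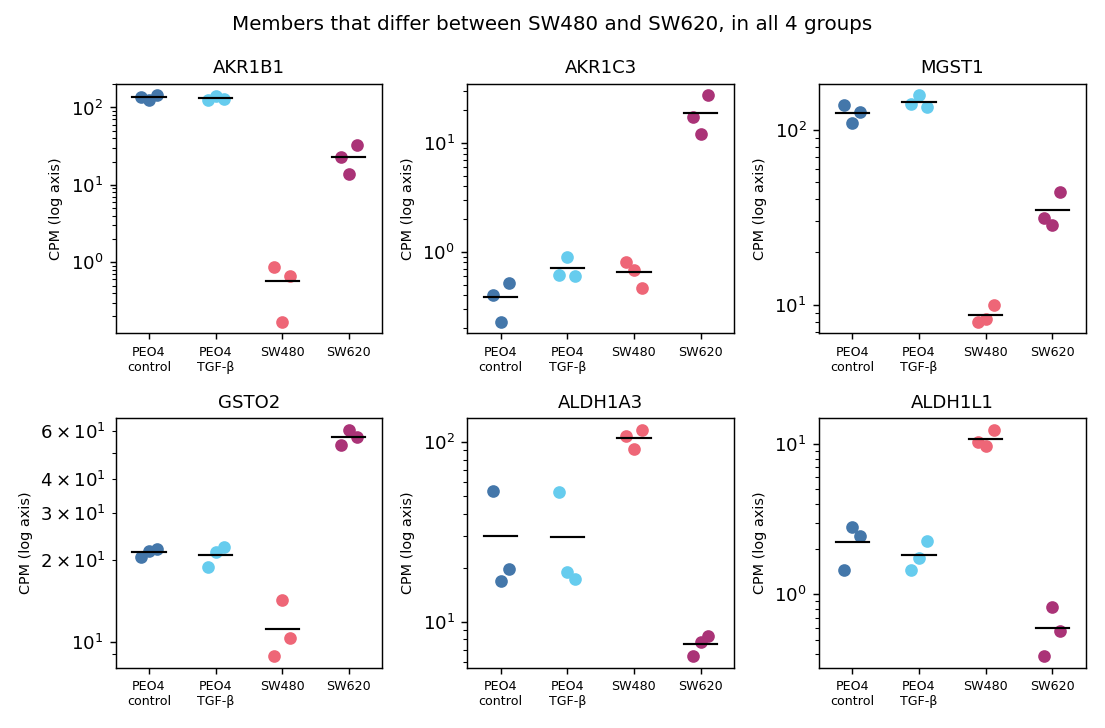
CPM per library on log axes for 6 genes that differ between SW480 and SW620, in all 4 groups, with a line at the group mean. AKR1B1, AKR1C3, MGST1 and GSTO2 sit higher in all 3 SW620 libraries than in any SW480 library, and ALDH1A3 and ALDH1L1 lower, while PEO4 is high in AKR1B1 and MGST1 and low in AKR1C3.

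Among the ALDH genes, ALDH1A3, which makes retinoic acid from retinaldehyde (ENSG00000184254, chr15:100877714-100916626, plus strand), was at 108, 91.1 and 117 CPM in SW480 and at 6.41, 7.74 and 8.36 CPM in SW620. The lowest SW480 library was well above the highest SW620 library, and the gene was 13.7-fold lower in SW620 (log2 fold change -3.78 ± 0.18, edgeR adjusted p 2.92e-06). Antisense and neighbouring transcripts cover 28.6% of its exon bases, and whether counting used strand is not given in the sources used here. ALDH1L1, a cytosolic folate enzyme that releases carbon dioxide from 10-formyltetrahydrofolate, was at 10.3, 9.72 and 12.4 CPM in SW480 and 0.386, 0.826 and 0.567 CPM in SW620. It too was lower in all SW620 libraries (log2 fold change -4.15 ± 0.34, edgeR adjusted p 3.33e-05). Its mitochondrial counterpart ALDH1L2 went the other way, from 5.85, 6.19 and 5.44 CPM in SW480 to 16.1, 8.57 and 15.6 CPM in SW620, without overlap (log2 fold change 1.22 ± 0.26, edgeR adjusted p 0.00657).

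ALDH3B1 was lower in SW620, at 15.9 ± 4.25 CPM against 34.6 ± 3.91 CPM in SW480 (SD, n = 3; log2 fold change -1.10 ± 0.20, edgeR adjusted p 0.00334). ALDH4A1, which completes the breakdown of proline, was at 20.7 ± 4.27 CPM in SW480 and at 9.94 ± 4.10 CPM in SW620 (log2 fold change -1.04 ± 0.28, edgeR adjusted p 0.0195), and 41.1% of its exon bases also belong to an overlapping annotated gene. ALDH18A1, at the opposite end of proline metabolism, had 74.6, 47.3 and 88.7 CPM in SW480 and 129, 79.0 and 178 CPM in SW620. These overlap, and its log2 fold change of 0.89 ± 0.30 lay just outside the threshold (edgeR adjusted p 0.0504). In the authors' deposited table it has a log2 fold change of 0.88 and an adjusted p of 0.0201. ALDH1A1 (0.26 ± 0.56, edgeR adjusted p 0.768) and ALDH3A1, a dioxin-inducible enzyme in other tissues (-0.40 ± 0.34, edgeR adjusted p 0.43), did not pass. Nor did the other 8 tested ALDH genes, ALDH1A2, ALDH1B1, ALDH3A2, ALDH5A1, ALDH6A1, ALDH7A1, ALDH9A1 and ALDH16A1, with edgeR adjusted p from 0.141 (ALDH5A1) to 0.825 (ALDH7A1).

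The GST genes moved in both directions. GSTO2, an omega-class enzyme that reduces dehydroascorbate (ENSG00000065621, chr10:104268873-104304945, plus strand), was at 8.83, 14.3 and 10.4 CPM in SW480 and 53.1, 60.7 and 56.9 CPM in SW620, a log2 fold change of 2.38 ± 0.22 (edgeR adjusted p 5.80e-05). GSTO1, the omega-class gene beside it, was at 25.8 ± 9.51 and 24.6 ± 9.03 CPM (log2 fold change -0.05 ± 0.32, edgeR adjusted p 0.93). MGST1, a membrane-bound transferase and peroxidase (ENSG00000008394, chr12:16347142-16609259), was at 8.03, 8.35 and 10.1 CPM in SW480 and 31.3, 28.6 and 44.0 CPM in SW620, 4.0-fold higher (log2 fold change 2.00 ± 0.20, edgeR adjusted p 9.53e-05). Its relatives were lower: MGST2, which can make leukotriene C4, was at 13.4 ± 2.83 CPM in SW480 and at 5.46 ± 0.708 CPM in SW620 (log2 fold change -1.27 ± 0.22, edgeR adjusted p 0.00242). MGST3 was at 21.5 ± 4.73 and 12.9 ± 2.72 CPM (SD, n = 3; log2 fold change -0.71 ± 0.21, edgeR adjusted p 0.0323).

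GSTA4, which conjugates the lipid peroxidation product 4-hydroxynonenal, was at 1.70 ± 0.504 CPM in SW480 and at 6.00 ± 0.746 CPM in SW620 (SD, n = 3; log2 fold change 1.85 ± 0.32, edgeR adjusted p 0.00226). GSTM4, a mu-class gene, was at 26.8, 20.2 and 26.3 CPM in SW480 and 5.16, 5.16 and 9.35 CPM in SW620, so the lines were far apart (log2 fold change -1.87 ± 0.25, edgeR adjusted p 0.000564), and 15.5% of its exonic 50-base windows occur in other mu-class genes. GSTZ1, which works in tyrosine breakdown, was at 21.7 ± 0.809 and 14.0 ± 1.74 CPM (log2 fold change -0.60 ± 0.16, edgeR adjusted p 0.0209). GSTP1 ranged widely within SW620, at 311, 186 and 526 CPM, against 259, 189 and 301 CPM in SW480. These overlap (log2 fold change 0.46 ± 0.33, edgeR adjusted p 0.338), although without SW620 replicate 2, the lowest, the value was 0.79 ± 0.25 (edgeR adjusted p 0.0337). GSTP1 passed in 3 of 15 alternatives, that one included, with an edgeR adjusted p down to 0.000412. GSTK1 did not pass (0.54 ± 0.20, edgeR adjusted p 0.0693), while the authors' deposited table gives it an adjusted p of 0.047. GSTM2, another mu-class gene, was at 1.77 ± 0.247 CPM in SW480 and at 1.06 ± 0.218 CPM in SW620 and did not pass either (edgeR adjusted p 0.215).

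NQO1, the main quinone reductase, 17.7% of whose exon bases overlap a gene on the other strand, was at 135, 84.3 and 142 CPM in SW480 and 149, 90.6 and 223 CPM in SW620, which overlap (log2 fold change 0.37 ± 0.31, edgeR adjusted p 0.407). Over the 15 alternatives the log2 fold change of NQO1 ranged from 0.03 to 0.68, and it passed in 2, with an edgeR adjusted p down to 0.00358. Its relative NQO2, which uses another co-substrate, was lower, at 39.6 ± 2.19 CPM in SW480 and at 27.5 ± 1.74 CPM in SW620 (SD, n = 3; log2 fold change -0.50 ± 0.14, edgeR adjusted p 0.025). UGT8, which attaches galactose to ceramide in place of glucuronic acid, was at 28.8 ± 5.17 and 19.1 ± 3.64 CPM. Its highest SW620 library (23.2 CPM) lay just above the lowest SW480 library (23.0 CPM), and the log2 fold change was -0.57 ± 0.19 (edgeR adjusted p 0.0495).

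The UGT1A locus at chr2:233617645-233773310 is described along its first exons. From the 5′ end its first exons lie in the order UGT1A8, UGT1A10, UGT1A9, UGT1A7, UGT1A6, UGT1A5, UGT1A4, UGT1A3 and UGT1A1. The 5 genes nearest the shared exons, UGT1A6 to UGT1A1, summed to 180, 133 and 190 counts in the SW480 libraries and to 17, 20 and 35 counts in SW620. That is 8.83 ± 1.16 CPM against 1.17 ± 0.433 CPM (SD, n = 3), 7.56-fold lower in SW620 and without overlap. The 4 genes at the 5′ end summed to 0, 3 and 1 counts in SW480 and to 17, 32 and 9 counts in SW620. Every SW620 library thus held more, though with at most 32 counts in a library. The sums were divided where the direction changes, after the values were seen, so they are a description with no test.

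UGT1A1, the bilirubin-conjugating enzyme, was at 68, 33 and 45 counts in SW480 and 4, 8 and 9 counts in SW620 (log2 fold change -2.84 ± 0.49, edgeR adjusted p 0.00213). UGT1A5 was at 39, 19 and 64 counts and 3, 1 and 5 counts (log2 fold change -3.78 ± 0.65, edgeR adjusted p 0.00222). In both genes the lines did not overlap. UGT1A4, which conjugates amines, was at 32, 41 and 36 counts in SW480 and 0, 0 and 1 counts in SW620. Against a floor of 3 counts per library it was at least 13.2-fold lower (edgeR adjusted p 0.00031). UGT1A6, which conjugates small phenols, was at 14, 17 and 15 counts against 3, 2 and 0 counts and at least 5.55-fold lower (edgeR adjusted p 0.0124). It was the 1 gene called here that is absent from the authors' deposited table. UGT1A3 kept a part of its level, with 27, 23 and 30 counts in SW480 and 7, 9 and 20 counts in SW620, and did not pass (log2 fold change -1.24 ± 0.49, edgeR adjusted p 0.0866).

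The 5′ genes were too low for the count filter. UGT1A8 had 0, 1 and 0 counts in SW480 and 11, 9 and 2 counts in SW620, and UGT1A10, known from the gut, had 0, 0 and 1 against 2, 9 and 6 counts. When all genes were fitted without the filter, UGT1A8 had an edgeR adjusted p of 0.0235, UGT1A10 0.0554, UGT1A9 0.081 and UGT1A7 0.431. In DESeq2 the adjusted p of UGT1A8 was 0.0484. Of 12 other tested genes at or within 500 kb of the locus, 3 were lower in SW620 (UGT1A2P, a pseudogene between UGT1A first exons, AC114812.3 and HJURP) and 2 were higher (DGKD and INPP5D), named after their values were seen. Of all tested genes 17% were lower and 13.5% higher. How the counting treated reads of the shared exons is not given in the sources used here.

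**Figure D4:**
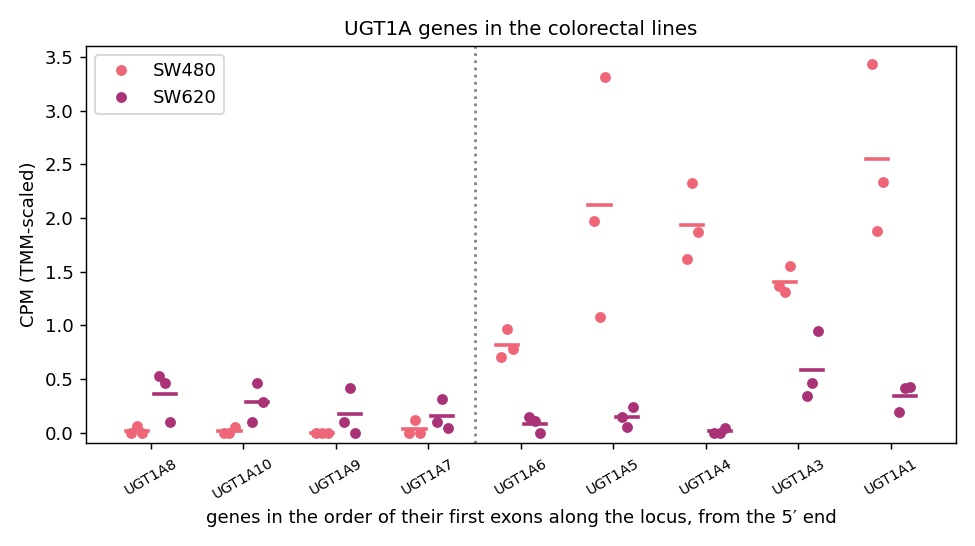
CPM per library of the 9 UGT1A genes in SW480 and SW620, in the order of their first exons, with a short line at each group mean and a dotted line after UGT1A7. Right of the dotted line the SW480 points lie above the SW620 points in every gene, and left of it SW480 is at or near 0 and SW620 reaches up to 0.53 CPM (11 counts).

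Of the 26 calls, 8 passed in all 15 alternatives run (ALDH1A3, ALDH1L2, ALDH3B1, GSTA4, GSTM4, GSTO2, MGST1 and MGST2). Another 8 (AKR1B1, AKR1C1, AKR1C3, AKR1C4, ALDH1L1, UGT1A1, UGT1A4 and UGT1A5) passed in the 14 that tested them, and were too low for the one that required at least 10 counts in every library. The remaining 10 missed the threshold in at least 1 alternative, with the direction kept and the log2 fold change of similar size. AKR1C2, with values of 1.03 to 1.55 over its alternatives, was lost without SW480 replicate 1 (edgeR adjusted p 0.137), SW480 replicate 3 (0.135), SW620 replicate 1 (0.118) or SW620 replicate 2 (0.0747). AKR1A1 (0.62 to 1.09) was lost without SW480 replicate 1 (0.0935) or 2 (0.0742) and without SW620 replicate 1 (0.0669) or 3 (0.0509). AKR1E2 (0.78 to 1.07) was lost without SW480 replicate 3 (0.0823) or SW620 replicate 1 (0.0537). AKR7A3 (1.09 to 1.56) was lost without SW480 replicate 1 (0.103) or 3 (0.107) or SW620 replicate 1 (0.0606), and with all 12 libraries in 1 model (0.0509). These 4 are the AKR calls with the smallest log2 fold changes. ALDH4A1 (-1.40 to -0.81) was lost without SW480 replicate 1 (0.0821) or 3 (0.0848) or SW620 replicate 1 (0.116), and UGT1A6 (-3.80 to -2.61, not tested at the minimum of 10 counts) without SW480 replicate 1 (0.0504). MGST3 (-0.88 to -0.55) was lost without SW480 replicate 1 (0.146) or 3 (0.16), SW620 replicate 1 (0.144) or 2 (0.0808), with DESeq2 (0.0564) and with a GC correction (0.0626). GSTZ1 (-0.68 to -0.46) was lost without each SW480 replicate in turn (0.123, 0.0536 and 0.0719) or SW620 replicate 1 (0.127), and with DESeq2 (0.0527). NQO2 (-0.54 to -0.43) was lost without each SW480 replicate in turn (0.177, 0.0505 and 0.105) or SW620 replicate 1 (0.147) or 2 (0.0592), and with DESeq2 (0.0912). UGT8 (-0.71 to -0.44) was lost without SW480 replicate 1 (0.214) or 3 (0.212), SW620 replicate 1 (0.217) or 2 (0.125), with DESeq2 (0.119), with the GC correction (0.065) and with the relative log expression scaling (0.0596). GSTZ1 (0.0579), UGT8 (0.0764) and NQO2 (0.106) were also lost with no count filter. Of these genes, 43 are listed in the authors' deposited table, 14 higher and 13 lower in SW620, and 25 of the calls made here are among them.

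Other genes of these pathways were read from 7 lists, chosen with earlier results of these data known. The lists share some genes and hold 106 in all, 94 of them tested. In SW620 12 were higher and 24 lower, 38.3% in all, nearer to the background of 30.5%. On the list of NRF2 targets and regulators 2 of 27 were higher and 7 lower. ABCC2, an exporter of conjugates, was higher (log2 fold change 5.65 ± 0.58), and the carbonyl reductase CBR3 (-4.69 ± 0.64), the heme oxygenase HMOX1 (-2.22 ± 0.33), GCLM, a subunit of the enzyme that starts glutathione synthesis (-1.39 ± 0.28), and the autophagy adaptor SQSTM1 (-1.16 ± 0.25) were lower. NFE2L2, which encodes NRF2, was at 86.8 ± 16.1 CPM in SW480 and at 66.5 ± 21.2 CPM in SW620 (edgeR adjusted p 0.304), and its inhibitor KEAP1 at 56.9 ± 10.3 and 57.2 ± 20.8 CPM (edgeR adjusted p 0.951). On the AHR list AHRR, the repressor of the receptor, was higher (2.32 ± 0.29, edgeR adjusted p 0.0004) and AHR lower (-0.69 ± 0.16, edgeR adjusted p 0.0118), and these were the 2 of 7 that passed.

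Of the lists that follow, 37.5% of the glutathione genes, 45.5% of the UDP-sugar and nuclear receptor genes, 64.3% of the retinoid genes, 37.5% of the phase I genes and 25% of the sulfation and acetylation genes passed, to be read against 30.5% of all tested genes. The glutathione list had 4 of 16 higher and 2 lower. Higher were the gut glutathione peroxidase GPX2 (log2 fold change 3.98 ± 0.37), GGT1 (2.77 ± 0.38), which cleaves extracellular glutathione, CHAC1 and GCLC, and lower were GCLM and GPX3. Of 11 genes for UDP-sugar supply and nuclear receptors, 2 were higher, among them HNF4A, a regulator of liver and gut genes (3.36 ± 0.22). Lower were FOXA1, PPARA (-1.80 ± 0.16) and RXRA. FOXA1 had at most 3 counts in each SW620 library and was at least 13.3-fold lower against that floor. On the retinoid list 8 of 14 were lower and 1 higher. The lower ones include the retinoic acid carrier CRABP2 (-3.44 ± 0.38), the retinaldehyde reductase DHRS3 (-2.40 ± 0.24), the retinoic acid hydroxylase CYP26A1 (-4.79 ± 0.58) and the receptors RARA and RARG, beside ALDH1A3, and RDH10, which makes retinaldehyde, was higher (1.78 ± 0.22). Of 16 phase I genes 2 were higher, ALDH2 (1.71 ± 0.24) and CYP2E1 (2.69 ± 0.53), and 4 lower, led by the vitamin D hydroxylase CYP24A1 (-6.31 ± 0.22), and of 8 sulfation and acetylation genes 1 was higher and 1, PAPSS1, lower. Each of these differences had an edgeR adjusted p under 0.05.

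Setting PEO4 with TGF-β against PEO4 control addresses how the line responds to 6 days of the cytokine. Among the detoxification genes GSTO1 rose and ALDH3B1 fell, each by less than 2-fold, and larger differences in AKR1D1, ALDH3A1 and ALDH3B2 did not pass. These were the 2 of 40 tested members (5%) that edgeR's quasi-likelihood test put past an adjusted 0.05, where 2.26% of 19064 genes passed, 1.27% higher and 0.991% lower. A share resting on 2 genes is near this background. Of the 40, 10 had an unadjusted p under 0.05, against 16.7% of all tested genes, and in 9 the groups did not overlap, against 19.9%. The median size of the log2 fold change was 0.14, against 0.18 over all tested genes.

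GSTO1, whose enzyme reduces dehydroascorbate and methylated arsenic species (ENSG00000148834, chr10:104235356-104267459, plus strand), was at 25.7, 21.5 and 24.9 CPM in control and 40.4, 38.8 and 32.9 CPM with TGF-β. The groups did not overlap, and the log2 fold change was 0.59 ± 0.10, or 1.51-fold (edgeR adjusted p 0.0245). Its neighbour GSTO2 was at 21.4 ± 0.801 and 20.9 ± 1.83 CPM (SD, n = 3; log2 fold change -0.09 ± 0.11, edgeR adjusted p 0.739). ALDH3B1 (ENSG00000006534, chr11:68008578-68029282, plus strand) was at 224, 215 and 228 CPM in control and 153, 186 and 152 CPM with TGF-β, again without overlap (log2 fold change -0.50 ± 0.08, edgeR adjusted p 0.0205). Both calls lay close enough to the threshold to miss it with 1 library fewer, while the log2 fold change stayed at 0.52 to 0.67 for GSTO1 and at -0.57 to -0.46 for ALDH3B1 over the alternatives. GSTO1 did not pass without control replicate 2 (edgeR adjusted p 0.139) or 3 (0.0583) or TGF-β replicate 1 (0.112) or 2 (0.113). ALDH3B1 did not pass without control replicate 2 (edgeR adjusted p 0.114) or 3 (0.0658) or TGF-β replicate 1 (0.112) or 3 (0.0776). With all 12 libraries in 1 model neither passed (0.534 for GSTO1 and 0.352 for ALDH3B1). Both are also past the threshold in the authors' deposited table.

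The RefSeq promoter of GSTO1 (GRCh38.p14, chr10:104254642-104254941, plus strand) is shown because it belongs to the 1 member that rose. It holds the core of the antioxidant response element bound by NRF2 at 2 places, in capitals, which begin 226 and 161 bases before the start.
GSTO1: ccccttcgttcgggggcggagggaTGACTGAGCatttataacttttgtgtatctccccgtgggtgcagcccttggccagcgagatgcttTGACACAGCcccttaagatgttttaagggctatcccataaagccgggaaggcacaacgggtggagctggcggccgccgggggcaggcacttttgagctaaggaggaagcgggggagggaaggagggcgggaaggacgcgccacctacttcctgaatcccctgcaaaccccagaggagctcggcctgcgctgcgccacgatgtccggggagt
The core searched was TGACNNNGC on both strands, and it occurred in 13.6% of all promoters of this length and in 9 of 60 member promoters (15%), GSTP1 and GSTA4 among them. In the GSTP1 window it overlapped a site for AP-1 (TGANTCA), found in 7.76% of all promoters. The palindrome GTCTAGAC, to which SMAD proteins of the TGF-β pathway bind, occurred in 0.201% of all promoters and in no member window. Of the NRF2 list 2 of 27 rose in PEO4 (7.41%, against 2.26% of all tested genes), among them the ferritin light chain gene FTL (0.48 ± 0.09, edgeR adjusted p 0.0301). On that list 12 genes, counted in either direction, had an unadjusted p under 0.05 in edgeR, against 16.7% of all tested genes. NFE2L2 is among the 12 and had a negative log2 fold change (-0.19 ± 0.08, edgeR adjusted p 0.288). That of KEAP1 was -0.005 ± 0.08 (edgeR adjusted p 0.982). In either direction, the groups did not overlap in 11 of the 27 (40.7%, against 19.9%). The median log2 fold change of the list was 0.236, against -0.016 over all tested genes. The part of NRF2 in these differences was not tested. NQO1 was at 49.7 ± 8.40 CPM in control and 53.8 ± 5.84 CPM with TGF-β (SD, n = 3), with an edgeR adjusted p of 0.839.

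Several genes short of the threshold had groups that did not overlap. ALDH5A1, which breaks down the GABA product succinic semialdehyde, was at 67.4, 64.0 and 67.4 CPM in control and 52.5, 59.8 and 48.3 CPM with TGF-β (log2 fold change -0.36 ± 0.08, edgeR adjusted p 0.0678). ALDH6A1, which works in valine breakdown, was at 58.1, 56.8 and 72.5 CPM and 39.3, 46.6 and 51.3 CPM (log2 fold change -0.50 ± 0.13, edgeR adjusted p 0.0847, 0.0482 without control replicate 1, 0.00342 with no count filter, and 0.0195 in DESeq2). The fatty aldehyde dehydrogenase ALDH3A2 was at 52.0 ± 11.2 and 36.2 ± 6.96 CPM (SD, n = 3; edgeR adjusted p 0.137, 0.00125 with no count filter, and 0.0298 in DESeq2). The authors' deposited table has these 3 ALDH genes past 0.05, with adjusted p of 0.0242, 0.014 and 0.0283, and lists 4 lower and 1 higher member in all. GSTP1 was at 480 ± 48.7 and 596 ± 68.5 CPM (log2 fold change 0.26 ± 0.10, edgeR adjusted p 0.222).

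AKR1D1 had the largest log2 fold change among the members above 10 CPM but varied widely between replicates. It was at 58.5, 30.1 and 13.3 CPM in control and 111, 105 and 69.0 CPM with TGF-β. The groups did not overlap, yet the log2 fold change of 1.44 ± 0.41 did not pass (edgeR adjusted p 0.12, and 0.176 in DESeq2). In the fit with no count filter the log2 fold change was similar with a smaller standard error (1.47 ± 0.17, edgeR adjusted p 3.07e-11). Control replicate 1, which lay between the groups in the principal component analysis, was its highest control library, and without it the value was 2.06 ± 0.33 (edgeR adjusted p 0.00971). ALDH3B2 was at 37.0, 63.6 and 89.3 CPM in control and 21.8, 38.5 and 37.9 CPM with TGF-β, which overlap (log2 fold change -1.01 ± 0.31, edgeR adjusted p 0.147, and 0.223 in DESeq2). With no count filter its standard error was smaller too (-0.98 ± 0.14, edgeR adjusted p 1.72e-07). The low ALDH3A1 was at 1.94 ± 1.97 CPM in control and 0.564 ± 0.196 CPM with TGF-β (SD, n = 3). Its edgeR adjusted p was 0.274, 0.0345 without control replicate 1 and 0.00962 with no count filter, and in DESeq2 it was 0.122.

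**Figure D5:**
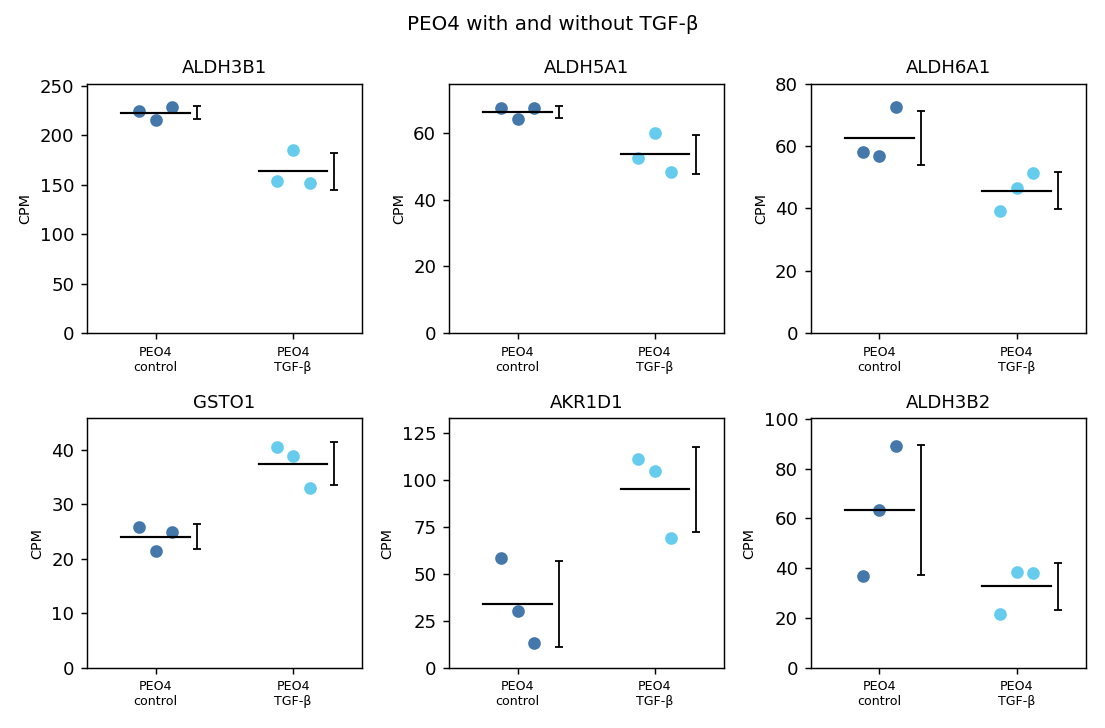
CPM per library of 6 genes in PEO4 control and PEO4 with TGF-β, with a line at the group mean and a bar for 1 SD (n = 3), on axes that start at 0. ALDH3B1, ALDH5A1 and ALDH6A1 lie lower and GSTO1 and AKR1D1 higher in all 3 treated libraries, while ALDH3B2 overlaps.

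ALDH1A3 differed more between PEO4 replicates than between treatments. It was at 53.6, 16.8 and 19.6 CPM in control and 52.9, 19.0 and 17.4 CPM with TGF-β. The replicate numbered 1 was the high one in both groups, and the log2 fold change was -0.04 ± 0.50 (edgeR adjusted p 0.98). Many of the genes that separated the SW lines had close means in the PEO4 groups. AKR1B1 had a log2 fold change of -0.09 ± 0.08, MGST1 of 0.16 ± 0.09, ALDH1L2 of -0.06 ± 0.10 and UGT8 of 0.03 ± 0.15, none past the threshold (edgeR adjusted p from 0.401 for MGST1 to 0.95 for UGT8). AKR1C3 was low, at 0.385 ± 0.148 and 0.704 ± 0.171 CPM (edgeR adjusted p 0.41), and AKR1B10 was at 2.41 ± 1.28 and 1.69 ± 0.40 CPM (edgeR adjusted p 0.551). The remaining tested members, among them AKR1A1, ALDH18A1, GSTK1, GSTM3 and MGST2, did not pass. UGT2B7, at 42.6 ± 4.91 and 38.4 ± 4.07 CPM (SD, n = 3), did not pass either (edgeR adjusted p 0.385).

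In the 7 lists 6 of 92 tested genes passed in PEO4 (6.52%, against 2.26% of all tested genes), 4 higher and 2 lower. STRA6, the receptor that takes up retinol, was at 6.70 ± 1.47 CPM in control and 32.7 ± 4.97 CPM with TGF-β (SD, n = 3; log2 fold change 2.24 ± 0.17, edgeR adjusted p 0.00112). CYP24A1 rose (1.45 ± 0.30, edgeR adjusted p 0.0454), as did FTL, and the retinoic acid carrier CRABP2 (-0.95 ± 0.20, edgeR adjusted p 0.0444) and the leukotriene hydroxylase CYP4F3 (-0.71 ± 0.13, edgeR adjusted p 0.0302) fell. No gene of the AHR list (8 tested), of the UDP-sugar and nuclear receptor list (9 tested) or of the sulfation and acetylation list (9 tested) passed, with 1, 2 and 2 at an unadjusted p under 0.05 in edgeR, where 16.7% of all tested genes had one.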

How the data were processed

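Gene counts were available for 12 libraries, 3 in each of 4 groups. Per the submitters' processing notes, the authors used Trimmomatic 0.36, STAR 2.5.2b, featureCounts from Subread 1.5.2, DESeq2 and the build GRCh38; the annotation and the use of strand are not given in the sources used here. The counts the authors deposited are whole numbers per gene ID, 57500 in all, of which 56898 were found in GENCODE 29. The authors' deposited comparison tables give, per the file headers, a log2 fold change, its p-value with the adjusted one, and a signal per library, which on checking equals the count over a size factor; of these, only the log2 fold changes and adjusted p-values served, for comparison.

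Members are all rows whose symbol fits the families, and members and lists were chosen with earlier results of these data known. The 6 libraries of a comparison were fitted alone, by edgeR 4.0.16 under R 4.3.3 (filterByExpr, TMM scaling, the two-sided quasi-likelihood test with Benjamini-Hochberg adjustment over all genes tested, threshold 0.05). The standard error is the log2 fold change over the square root of F. The biological coefficient of variation was 0.274 in the SW lines and 0.152 in PEO4. A fold against a group with at most 3 counts in each library was set against that floor. A member was named if it passed with at least 1 CPM in the higher group (UGT1A6 by a fixed name), if it was among the 5 smallest p in PEO4 or the 5 highest per kb in a group, or if it was on a list of 17 widely studied genes, of which GSTT1 is not analysed here; list genes were named by the 5 smallest p per list, and some of them are not reported here. Other members are named to account for all. Alternatives were DESeq2 1.42.0, RLE scaling, plain totals for levels, a fit with no filter, a minimum of 10 counts per library, all 12 libraries in 1 model, a replicate block, a GC correction (loess span 0.3) with and without it, each library left out, and, chosen after seeing the data, both SW libraries numbered 2 left out. The scripts were tested on simulated data.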

Additional observations from a re-analysis of the deposited data

How the results depend on the processing

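The counts of genes past the threshold moved with the processing. In the SW lines the members higher and lower in SW620 numbered 12 and 14, and leaving out 1 library gave 8 to 15 for each. Requiring at least 10 counts in every library left 9 lower. For the other pathway genes of the SW lines, 12 higher and 24 lower, leaving out 1 library gave 10 to 16 and 13 to 33. In PEO4 the members, 1 higher and 1 lower, became 2 and 5 with no count filter, 1 and 3 with DESeq2 and 0 and 0 with all 12 libraries in 1 model, and 0 to 2 and 0 to 4 when 1 library was left out. The other pathway genes of PEO4, 4 higher and 2 lower, became 9 higher with DESeq2, 13 higher with no count filter, 2 and 0 with all 12 libraries, and 1 to 7 and 0 to 2 when 1 library was left out. The numbers of members at 1 CPM or more stayed within 1 of 38, 37, 37 and 36 in the 4 groups under every alternative. The share of all tested genes called moved too, from 30.5% to 18.1% in the SW lines and from 2.26% to 3.82% in PEO4 with no count filter. Between 0.366% and 5.38% of all PEO4 genes passed when 1 library was left out, the latter without control replicate 1. The cause of these shifts was not tested.

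The main fits did not pair the samples by replicate number. Deviations of same-numbered libraries from their group means correlated at 0.0627, 0.72 and 0.63 in the SW lines and at 0.334, -0.117 and 0.527 in PEO4. Differently numbered libraries correlated at -0.674 to 0.332 in the SW lines and at -0.51 to 0.215 in PEO4. The source of these correlations was not tested. With the number as a replicate block, the members of the SW lines became 18 higher and 17 lower, and 20 and 16 with the GC correction added. The other pathway genes became 17 higher and 39 lower with the block, and 25 and 37 with the block and GC correction. In PEO4 the block gave 2 higher and 5 lower members, the same numbers with the GC correction, and 14 and 6 other pathway genes, or 15 and 8 with the correction.

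Values near 0 changed sign when 1 library was left out, with ranges of -0.040 to 0.63 for ALDH1A1 in the SW lines and, in PEO4, of -0.50 to 0.15 for ALDH1A1, -0.76 to 0.66 for ALDH1A3, -0.027 to 0.12 for UGT8 and -0.015 to 0.22 for NQO1. Depth limits the UGT1A genes, AKR1C4 and ALDH1A1, which rest on low counts.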
